A study of Mus musculus with 4 samples.

Results

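The genes described here encode the intermediate filament proteins of glia and neurons: Gfap, Vim, Nes and Synm, which glial and progenitor cells use, and Nefl, Nefm, Nefh, Ina and Prph, which neurons use. They were selected by gene name, with no threshold on a measured value, and are 9 of the 29224 genes in the deposited tables. The libraries were made from astrocytes of the mouse cerebral cortex at P5 (postnatal day 5), isolated with magnetic beads carrying an antibody to the astrocyte surface transporter GLAST. There were 2 libraries from Ezh2 f/f mice, which carry floxed alleles of Ezh2, and 2 from Ezh2 cKO mice, in which the same floxed alleles were combined with Aldh1l1-icre, a Cre recombinase driven by the promoter of the astrocyte gene Aldh1l1. Ezh2 encodes the histone methyltransferase of Polycomb repressive complex 2. The study names C57BL/6J and ICR (CD1) mice and the floxed and Cre lines, but the sources used here do not state the background or sex of the animals behind each library, how many were pooled, or whether the libraries of a group came from separate animals, so p-values measure only the spread between these libraries, which may be technical.

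Intermediate filaments are rope-like polymers that give cells mechanical strength, and their protein composition is a classical marker of cell type and maturity. Radial glia and immature astrocytes build filaments from vimentin and nestin, and maturing or reactive astrocytes add glial fibrillary acidic protein, with synemin as a partner that cannot form filaments alone. Young neurons rely on alpha-internexin, and the neurofilament light, medium and heavy chains accumulate as axons mature, while peripherin is best known in peripheral neurons and in central neurons that project to the periphery.

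Total counts ranged from 16273308 to 17522152 per library. On these totals, 3 counts, as many as an observed 0 may stand for, corresponded to between 0.171 and 0.184 CPM (counts-per-million). This limit covers counting error only. All other CPM values are scaled to the TMM-adjusted library size. Ezh2 was counted 434 and 327 times in Ezh2 f/f, against 211 and 164 times in Ezh2 cKO. This is a log2 fold change of -1.11 (SE 0.16, adjusted p = 3.26e-05 by edgeR's quasi-likelihood test with Benjamini-Hochberg adjustment, as for every adjusted p here). Aldh1l1, the gene whose promoter drives the Cre, had a log2 fold change of -0.15 (SE 0.10, adjusted p = 0.175) and was not called. The label of astrocytes was checked against 13 lists of cell type markers. None of the listed markers found in the tables was at 0 in every library. The 12 astrocyte markers summed to between 114 and 117 FPKM (fragments scaled to gene length and library size, as deposited) in Ezh2 f/f and to between 435 and 476 in Ezh2 cKO, whereas 10 pan-neuronal markers summed to between 2328 and 2412 FPKM in Ezh2 f/f and to between 2155 and 2161 in Ezh2 cKO. Transcripts of neurons were thus abundant in all 4 libraries labelled as astrocytes. In bulk RNA, fewer cells of a type and less RNA per cell cannot be told apart.

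All 9 genes passed the filter on low counts and all 9 differed between the groups at an adjusted p under 0.05, with 6 higher and 3 lower in Ezh2 cKO. Of the 16793 genes tested, 68.4% were called, 34.7% as higher and 33.6% as lower, so a call by itself did not set a gene apart from the rest. The Ezh2 f/f and Ezh2 cKO libraries did not overlap for any of the 9 genes, which was also the case for 84.3% of all tested genes (42.8% higher and 41.5% lower in Ezh2 cKO). The size of each change is therefore given beside the share of tested genes with a more extreme one. Among the glial genes, Gfap and Synm rose whereas Vim and Nes fell. Among the neuronal genes, the 3 neurofilament chains and Prph rose whereas Ina fell.

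**Figure D1:**
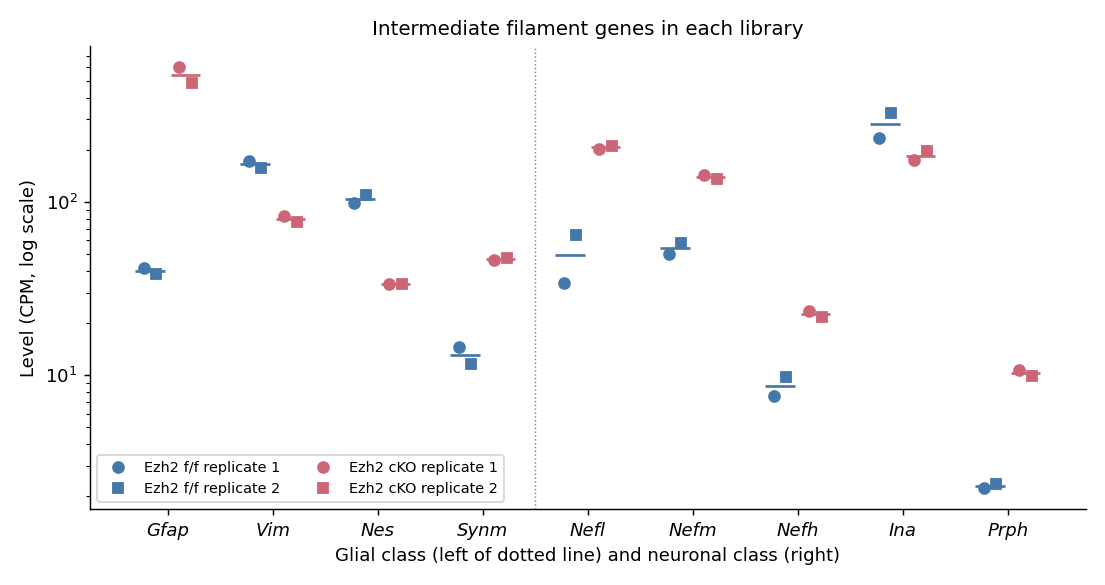
CPM (log axis) of each of the 9 intermediate filament genes in the 2 Ezh2 f/f and 2 Ezh2 cKO libraries, 1 point per library, with a bar at each group mean. The groups did not overlap for any gene, and the Ezh2 f/f points of Nefl lay farthest apart, at 34.3 and 64.4 CPM.

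Gfap (ENSMUSG00000020932, chromosome 11, 102778162 to 102791738, minus strand, as deposited) encodes the main filament protein of astrocytes. It was counted 706 and 605 times in Ezh2 f/f, against 10604 and 8417 times in Ezh2 cKO. This corresponded to 41.3 and 38.5 CPM in Ezh2 f/f, against 601 and 486 CPM in Ezh2 cKO. Both Ezh2 cKO libraries were high, and the gap between the groups was far wider than the 1.24-fold difference between the Ezh2 cKO libraries. Gfap rose 13.6-fold, a log2 fold change of 3.77 (SE 0.12, 95% interval 3.52 to 4.02, adjusted p = 2.51e-11), and 0.881% of tested genes had a larger log2 fold change. Ranked by FPKM among all genes, Gfap moved from positions 5020 and 5254 in Ezh2 f/f to positions 319 and 382 in Ezh2 cKO.

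Synm (ENSMUSG00000030554, chromosome 7, 67379908 to 67409490, minus strand) encodes synemin, which joins other filament proteins and links filaments to the membrane-associated dystrophin complex. It was counted at 14.5 and 11.6 CPM in Ezh2 f/f, against 46.1 and 47.3 CPM in Ezh2 cKO. Both Ezh2 cKO libraries lay above both Ezh2 f/f libraries. Synm rose 3.57-fold (log2 fold change 1.84, SE 0.13, adjusted p = 2.50e-08), with a larger log2 fold change in 8.06% of tested genes. Its gene span lies within that of Ttc23 on the other strand, but the 2 genes share only 84 exon bases, 1.06% of those of Synm, and Ttc23 had between 82 and 125 counts per library.

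Vim (ENSMUSG00000026728, chromosome 2, 13578738 to 13587637, plus strand) encodes vimentin, which immature glia, endothelial cells, fibroblasts and many other non-neuronal cells contain. It was counted at 173 and 158 CPM in Ezh2 f/f, against 83.5 and 77.0 CPM in Ezh2 cKO. The Ezh2 cKO libraries were both low, and within each group the libraries differed by at most 1.10-fold. Vim was 2.06-fold lower in Ezh2 cKO (log2 fold change -1.04, SE 0.10, adjusted p = 3.44e-07), with a smaller log2 fold change in 13.3% of tested genes. Nes (ENSMUSG00000004891, chromosome 3, 87878385 to 87887758, plus strand) encodes nestin, the filament protein used to recognise neural stem and progenitor cells. It was counted at 98.1 and 110.4 CPM in Ezh2 f/f and at 33.8 CPM in each of the Ezh2 cKO libraries. The Ezh2 cKO libraries were nearly identical and well below both Ezh2 f/f libraries. Nes was 3.08-fold lower (log2 fold change -1.62, SE 0.10, adjusted p = 7.56e-09), with a smaller log2 fold change in 5.30% of tested genes. Vim and Nes fell while Gfap and Synm rose in the same libraries.

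The 4 glial genes moved in opposite directions, and the 250 bases before their annotated starts are shown because they also differed in how many CpG dinucleotides they held. The windows are RefSeq reference sequence on GRCm38.p6, which is not the build of the coordinates above, and they are printed 5′ to 3′ on the strand of the gene, with each CpG in capitals. Gfap and Synm, which rose, come first, and Vim and Nes, which fell, follow.
Gfap (chr11:102897201-102897450, - strand): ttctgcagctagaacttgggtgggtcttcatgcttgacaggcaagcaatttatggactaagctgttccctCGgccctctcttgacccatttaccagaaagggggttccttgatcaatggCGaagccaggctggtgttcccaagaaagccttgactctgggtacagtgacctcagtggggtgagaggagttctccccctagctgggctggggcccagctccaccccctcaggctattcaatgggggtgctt
Synm (chr7:67759743-67759992, - strand): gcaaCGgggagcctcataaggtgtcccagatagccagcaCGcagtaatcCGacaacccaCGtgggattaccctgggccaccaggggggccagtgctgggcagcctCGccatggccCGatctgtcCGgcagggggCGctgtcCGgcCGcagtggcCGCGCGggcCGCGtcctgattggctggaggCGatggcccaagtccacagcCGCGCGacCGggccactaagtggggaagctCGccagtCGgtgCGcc
Vim (chr2:13574061-13574310, + strand): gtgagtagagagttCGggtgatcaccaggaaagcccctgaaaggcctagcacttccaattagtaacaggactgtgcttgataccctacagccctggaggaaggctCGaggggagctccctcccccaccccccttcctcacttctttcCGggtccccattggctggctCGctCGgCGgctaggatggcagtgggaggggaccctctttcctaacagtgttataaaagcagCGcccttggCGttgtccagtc
Nes (chr3:87970843-87971092, + strand): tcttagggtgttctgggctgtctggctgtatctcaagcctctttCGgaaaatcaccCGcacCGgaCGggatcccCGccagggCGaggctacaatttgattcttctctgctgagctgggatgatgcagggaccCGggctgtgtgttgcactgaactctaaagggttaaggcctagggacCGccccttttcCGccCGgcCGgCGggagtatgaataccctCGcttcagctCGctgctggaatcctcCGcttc
The window of Gfap held 2 CpG, fewer than 71.0% of the 32851 windows of the same length across 27025 genes, of which the median held 6. The window of Synm held 23 CpG, more than 86.7% of windows. Those of Vim and Nes held 8 and 15. The pair that rose thus lay at the low and the high end of these 4 windows. Any link between CpG number and direction was not tested. A search for the letters TATAAA on the strand of the gene found a match 32 bases before the start of Vim and none in the windows of Gfap, Synm and Nes, and 7.59% of all windows held a match on that strand. The letters TTCNNNGAA, searched on both strands, were in none of these 4 windows and in 7.02% of all windows. Of the 9 genes, 6 were in the promoter table, and Nefl, Nefm and Nefh were not. Among the neuronal genes, the window of Ina held 25 CpG and that of Prph held 7, with TATAAA 31 bases before the start of Prph. A match is a description of the letters and not of a site in use, and methylation and histone marks were not measured in these libraries.

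The neurofilament chains co-assemble in axons, where the light chain Nefl forms the core and the medium and heavy chains Nefm and Nefh carry long side arms. Nefl (ENSMUSG00000022055, chromosome 14, 68321312 to 68326544, plus strand) was counted 585 and 1012 times in Ezh2 f/f, against 3574 and 3641 times in Ezh2 cKO. In CPM it stood at 34.3 and 64.4 in Ezh2 f/f, against 203 and 210.2 in Ezh2 cKO. The Ezh2 f/f libraries differed 1.88-fold, the widest spread within a group among the 9 genes, and both still lay well below the Ezh2 cKO libraries. Nefl rose 4.19-fold (log2 fold change 2.07, SE 0.20, 95% interval 1.65 to 2.49, adjusted p = 4.61e-07). Leaving out Ezh2 f/f replicate 1 gave a log2 fold change of 1.69 and leaving out replicate 2 gave 2.59, so its size depended on which Ezh2 f/f library was used.

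Nefm (ENSMUSG00000022054, chromosome 14, 68320039 to 68362295, minus strand) was counted at 50.3 and 57.8 CPM in Ezh2 f/f, against 144 and 135 CPM in Ezh2 cKO. It rose 2.58-fold (log2 fold change 1.37, SE 0.10, adjusted p = 4.30e-08). Both Ezh2 cKO libraries were high and the libraries of each group lay close together. Nefh (ENSMUSG00000020396, chromosome 11, 4888754 to 4898064, minus strand) was counted at 7.55 and 9.80 CPM in Ezh2 f/f, against 23.4 and 21.5 CPM in Ezh2 cKO. It rose 2.59-fold (log2 fold change 1.37, SE 0.16, adjusted p = 3.85e-06). A larger log2 fold change was found in 5.99% of tested genes for Nefl, in 13.4% for Nefm and in 13.3% for Nefh, so the chains were not at the extreme of the distribution. As annotated in GENCODE M21, 1108 exon bases of Nefl, 32.8% of its total, overlap exons of 1 of the 2 Nefm transcripts on the other strand. Whether reads were counted by strand is not given in the sources used here, and if they were not, reads in that stretch cannot be told apart, which makes the counts of Nefl and Nefm uncertain.

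Ina (ENSMUSG00000034336, chromosome 19, 47003137 to 47013766, plus strand) encodes alpha-internexin, the neuronal filament protein that precedes the neurofilament chains in development. It was counted 4009 and 5129 times in Ezh2 f/f, against 3063 and 3398 times in Ezh2 cKO, or at 235 and 326 CPM against 174 and 196 CPM. The Ezh2 cKO libraries were both lower, but the distance from 196 to 235 CPM between the nearest libraries of the groups was less than that between the Ezh2 f/f libraries. Ina was 1.52-fold lower (log2 fold change -0.60, SE 0.13, 95% interval -0.88 to -0.33, adjusted p = 8.40e-04), with a smaller log2 fold change in 26.1% of tested genes. This was the smallest change of the 9 genes. The call was lost without Ezh2 cKO replicate 1 (log2 fold change -0.52, adjusted p = 0.0517) and with limma on unfiltered log2(FPKM + 1) values (-0.49, adjusted p = 0.122). Without Ezh2 f/f replicate 2 the log2 fold change was smaller, at -0.34, in a fit that took its spread from the Ezh2 cKO libraries alone. Ina also shares 456 exon bases (14.1% of its own) with Nt5c2 on the other strand, a gene with 2609 and 2483 counts in Ezh2 f/f, against 1087 and 1149 in Ezh2 cKO. The part of those reads in the Ina counts was not tested.

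Prph (ENSMUSG00000023484, chromosome 15, 98953055 to 98956859, plus strand) encodes peripherin and was the least counted of the 9 genes. It had 38 and 37 counts in Ezh2 f/f, against 188 and 172 in Ezh2 cKO, or 2.22 and 2.35 CPM against 10.7 and 9.93 CPM. All libraries were well above the floor of 3 counts. Prph rose 4.49-fold (log2 fold change 2.17, SE 0.21, adjusted p = 6.59e-07), with a larger log2 fold change in 5.32% of tested genes. Markers of peripheral and brainstem neurons, which are known to contain peripherin, moved the other way: of the 5 listed markers in the tables, 3 were tested, 2 were called lower and none higher, and their summed level went from between 13.9 and 16.8 CPM in Ezh2 f/f to between 2.10 and 5.31 CPM in Ezh2 cKO. Prdm12, the member of that list at 20 and 16 counts in Ezh2 f/f, had 0 counts in both Ezh2 cKO libraries. The part of such neurons in the level of Prph was not tested.

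**Figure D2:**
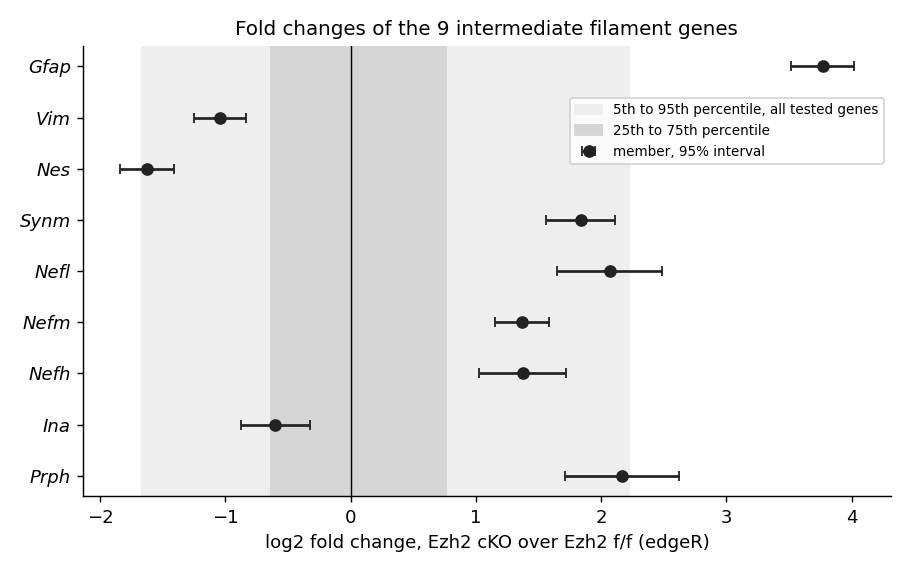
Log2 fold change of Ezh2 cKO over Ezh2 f/f for each of the 9 genes from edgeR, with 95% intervals, over grey bands for the 5th to 95th and the 25th to 75th percentile of all 16793 tested genes. Gfap, at 3.77, lies far outside the outer band, whose limits are -1.67 and 2.23, and Ina, at -0.60, lies just inside the inner band.

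Levels of different genes were compared per length, as FPKM. In Ezh2 f/f the order of the group means was Ina at 83.9, Vim at 33.9, Nes at 15.8, Nefl at 14.1, Gfap at 9.18, Nefm at 9.07, Nefh at 2.11, Synm at 1.60 and Prph at 1.11 FPKM. The libraries of Nes and Nefl overlapped, as did those of Gfap and Nefm, and these neighbours in the order were not separated by the spread of their libraries. In Ezh2 cKO the order was Gfap at 132, Nefl at 62.8, Ina at 58.7, Nefm at 24.8, Vim at 17.4, Synm at 6.05, Nefh at 5.78, Nes at 5.41 and Prph at 5.29 FPKM. There the neighbours Nefl and Ina, Synm and Nefh, and Nes and Prph overlapped. Ina and Vim led in Ezh2 f/f, and Gfap led in Ezh2 cKO.

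The summed level of the 9 genes went from 171 ± 24.0 FPKM in Ezh2 f/f to 319 ± 11.2 FPKM in Ezh2 cKO (SD, n = 2 libraries each), a ratio of 1.87. The 4 glial genes summed to 60.4 ± 2.08 and 161 ± 18.4 FPKM, and the 5 neuronal genes to 110.4 ± 26.1 and 157 ± 7.28 FPKM. The glial ratio was 2.67 and the neuronal ratio 1.43. Gfap made up 6.21% and 4.69% of the summed FPKM in Ezh2 f/f, against 44.4% and 38.5% in Ezh2 cKO. Vim went from 23.2% and 17.1% to 5.49% and 5.43%, and Ina from 45.9% and 51.8% to 16.7% and 20.2%. Gfap thus took the place of Ina as the largest share. The glial genes together held 40.2% and 31.4% of the sum in Ezh2 f/f, against 53.4% and 47.7% in Ezh2 cKO, which did not overlap.

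**Figure D3:**
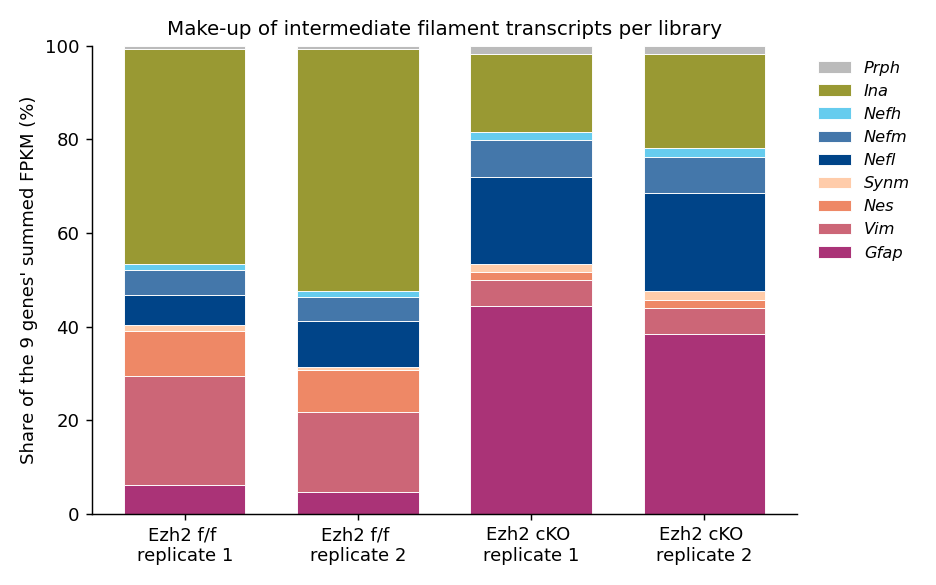
Percent of the summed FPKM of the 9 genes that each gene took in each of the 4 libraries, as stacked bars that reach 100. Gfap took 6.21% and 4.69% in Ezh2 f/f, against 44.4% and 38.5% in Ezh2 cKO, while Ina went from 45.9% and 51.8% to 16.7% and 20.2%.

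Ratios between members within a library do not depend on library size. The FPKM ratio of Gfap to Vim was 0.268 and 0.275 in Ezh2 f/f, against 8.10 and 7.09 in Ezh2 cKO, a difference of 4.80 in the mean log2 ratio. The ratio of Gfap to Nes went from 0.641 and 0.531 to 27.1 and 21.9. Synm to Vim went from 0.0501 and 0.0439 to 0.330 and 0.368. The balance within the glial genes thus moved from Vim and Nes towards Gfap and Synm in both Ezh2 cKO libraries. On the neuronal side, the ratio of Nefl to Ina was 0.140 and 0.189 in Ezh2 f/f, against 1.12 and 1.03 in Ezh2 cKO, and that of Nefm to Ina 0.120 and 0.0993 against 0.464 and 0.387. The neurofilament chains were below Ina in every library except for Nefl in Ezh2 cKO. Between Nefm and Nefh the ratio was 4.60 and 4.08 in Ezh2 f/f, against 4.25 and 4.34 in Ezh2 cKO, so these groups overlapped and the mean log2 ratio differed by -0.01. Of the 3 chains' summed FPKM, Nefl made up 48.9% and 60.5% in Ezh2 f/f, against 66.1% and 68.3% in Ezh2 cKO. A total of 9 ratios was compared. An exact two-sided permutation test gave p = 0.333 for 7 of them, the smallest that 2 libraries against 2 can give, and p = 1 for Nefm to Nefh and for Prph to Nefl.

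Markers of several cell types moved with the members, and their values are given for each group of genes. Of the 12 astrocyte markers, 10 were called higher and none lower, and their sum went from between 539 and 561 CPM in Ezh2 f/f to between 2410 and 2601 CPM in Ezh2 cKO. Slc1a3, which encodes GLAST, the antigen of the isolation, rose by 1.59 on the log2 scale (SE 0.09, adjusted p = 2.71e-09). Against the summed astrocyte markers, Gfap stood at 7.67% and 6.87% in Ezh2 f/f, against 23.1% and 20.2% in Ezh2 cKO, a ratio of 2.98 between the group means. Synm stood at 2.70% and 2.07% against 1.77% and 1.96%. Vim went from 32.2% and 28.1% of the astrocyte sum to 3.21% and 3.19%. Without Slc1a2, the glutamate transporter gene that makes up the largest part of the list in Ezh2 cKO, Synm stood at 3.07% and 2.34% against 2.91% and 3.31%. Relative to the summed markers, Synm was thus lower in Ezh2 cKO with Slc1a2 in the sum, and its groups overlapped without Slc1a2. Gfap was higher and Vim lower in Ezh2 cKO with and without Slc1a2. This does not hold for Gfap against each marker. S100b, Aqp4 and Slc1a2 rose by 4.92, 4.42 and 3.94 on the log2 scale, more than Gfap at 3.77. All other listed astrocyte markers had smaller log2 fold changes than Gfap, down to -0.15 for Aldh1l1. The part of astrocyte content in these changes was not tested.

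Progenitor, vascular and choroid cells also contain vimentin or nestin. The 8 neural progenitor markers summed to between 316 and 370 CPM in Ezh2 f/f and to between 500.0 and 572 CPM in Ezh2 cKO, with 4 called higher and 3 lower. Of 7 cycling-cell markers 6 were lower and none higher, with sums of 158 to 173 CPM against 102 to 111 CPM. Most of the progenitor sum was Fabp7, a fatty acid binding protein of radial glia and astrocytes, and without it the other 7 markers summed to 91.6 and 108 CPM in Ezh2 f/f, against 79.0 and 79.8 CPM in Ezh2 cKO. The direction of the progenitor sum thus turned with Fabp7, while cycling-cell markers were lower along with Vim and Nes. Endothelial markers, with 1 higher and 1 lower of 6, summed to between 224 and 231 CPM in Ezh2 f/f and to between 208 and 244 CPM in Ezh2 cKO, and the 4 fibroblast markers to between 190 and 222 CPM and between 181 and 199 CPM. The 6 mural markers, of which 3 were higher and 1 lower, went from between 207 and 221 CPM to between 318 and 360 CPM. The 5 ependymal and choroid markers, with 2 higher and 3 lower, went from 393 and 775 CPM to 19.1 and 14.3 CPM. Most of that sum was Ttr, the choroid plexus carrier of thyroid hormone, at 6326 and 11598 counts in Ezh2 f/f, against 5 and 12 in Ezh2 cKO. The Ezh2 f/f library with more Ttr counts also had more Nes, Nefl, Nefm, Nefh, Ina and Prph in CPM, and less Gfap, Vim and Synm. With 2 libraries in the group, a shared direction cannot show a link. What part each of these cell types had in the members' changes was not tested.

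Among the neuronal lists, 8 of 10 pan-neuronal markers were called higher and 1 lower, with sums of 6535 and 6899 CPM in Ezh2 f/f, against 8035 and 8033 CPM in Ezh2 cKO. The direction of this sum turned with the unit, since in FPKM it was lower in Ezh2 cKO (2155 to 2161 against 2328 to 2412). The marker called lower was Tubb3, a neuronal tubulin, at a mean of 3617 CPM in Ezh2 f/f, against 2208 CPM in Ezh2 cKO, and without it the sum was higher in Ezh2 cKO in CPM (5790 and 5862 against 2971 and 3228) and in FPKM (932 and 954 against 468 and 515). Of the 8 markers of immature neurons, 7 were lower and none higher, and their sum went from between 7345 and 7653 CPM to between 2502 and 2585 CPM, most of it Tubb2b, another tubulin. Against the pan-neuronal sum, Nefl stood at 0.524% and 0.934% in Ezh2 f/f, against 2.52% and 2.62% in Ezh2 cKO. Nefm went from 0.770% and 0.839% to 1.79% and 1.68%, and Ina from 3.59% and 4.73% to 2.16% and 2.44%. Nefl and Nefm were thus higher, and Ina lower, also relative to the pan-neuronal sum, and so they were in FPKM and without Tubb3. Without Tubb3, however, the difference in Nefm was 0.46 and not 1.11 on the log2 scale. Single markers differed: Syt1 rose by 2.61 on the log2 scale, more than Nefl and Nefm. Snap25 (1.79), Elavl4 (1.52), Syp (1.47) and Nsf (1.38) rose more than Nefm. Rbfox3 (0.58), Map2 (0.53), Stmn2 (0.47), Sv2a (0.07) and Tubb3 (-0.71) had smaller log2 fold changes than Nefm. Against the immature-neuron sum Ina was higher in Ezh2 cKO, the reverse of its direction against the pan-neuronal sum. It stood at 3.07% and 4.44% in Ezh2 f/f, against 6.94% and 7.59% in Ezh2 cKO, and it was also higher there without Tubb2b. Oligodendrocyte precursor, oligodendrocyte and microglia markers were all called higher (6 of 6, 6 of 6 and 7 of 7). Their sums went from between 182.5 and 184 to between 533 and 603 CPM for precursors, from between 67.9 and 83.5 to between 716 and 837 CPM for oligodendrocytes, and from between 58.1 and 62.2 to between 198 and 227 CPM for microglia. The part of neuronal content or maturity in the values of the neuronal genes was not tested.

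**Figure D4:**
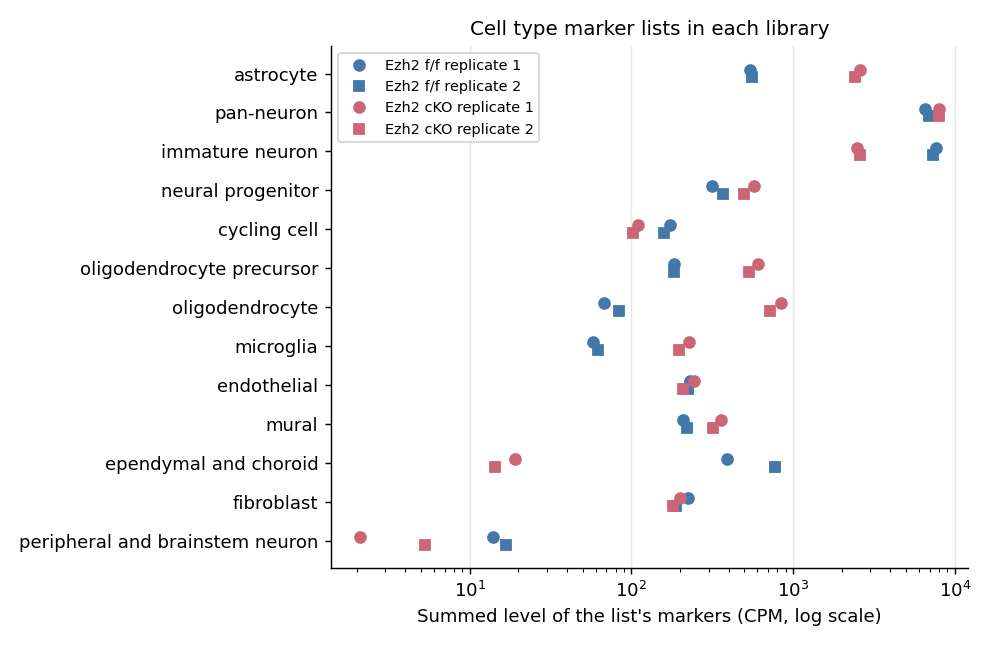
Summed CPM (log axis) of each list of cell type markers in the 2 Ezh2 f/f and 2 Ezh2 cKO libraries, 1 point per library. The astrocyte sum was higher in Ezh2 cKO (2410 to 2601 against 539 to 561 CPM), and the sums of immature neuron and of ependymal and choroid markers were lower.

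The other genes of the filament system were examined in 6 lists with 94 genes, of which 93 were in the tables and 88 were tested. In all, 32 were called higher and 32 lower, with a median log2 fold change of 0.08 beside 0.02 over all genes tested. Of all 16793 genes tested, 34.7% were called higher and 33.6% lower, so the lists together were called about as often as all genes. The counts of each list below stand beside these shares. Among the other intermediate filament genes, 4 of 13 tested were higher and 6 lower. Krt222, a keratin-related gene, rose by 3.06 (SE 0.25, adjusted p = 9.21e-08) and Bfsp2, which encodes the lens filament protein phakinin, rose by 2.60 (SE 0.39, adjusted p = 4.00e-05) on the log2 scale. The lamin genes Lmnb1 and Lmnb2, which form the nuclear lamina, had log2 fold changes of -2.80 (SE 0.10, adjusted p = 1.07e-10) and -1.47 (SE 0.10, adjusted p = 1.75e-08). The count of 6 lower genes in this list dropped to 2 or 3 under several alternatives, among them 3 with DESeq2 and 3 without Ezh2 cKO replicate 2.

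Of the 14 tested linkers that tie filaments to membranes, junctions and nuclei, 6 were higher and 3 lower. Syne1, a nesprin of the nuclear envelope, and Dtna, a dystrobrevin of the dystrophin complex, rose by 2.04 and 1.82 on the log2 scale (SE 0.10 each, adjusted p = 7.02e-10 and 2.06e-09). Sun2 and Sun1, which anchor nesprins from the inner nuclear membrane, had log2 fold changes of -2.04 (SE 0.10, adjusted p = 8.02e-10) and -0.79 (SE 0.10, adjusted p = 1.19e-05). These genes were named by a rule that takes 2 of each direction, so opposite directions among them were fixed in advance. The other nesprin genes in the list moved in the direction of Sun1 and Sun2. Syne2 had a log2 fold change of -0.55 (SE 0.13, adjusted p = 0.00137), and Syne3, which was not called, one of -0.69 (SE 0.47). Of 20 kinases and phosphatases that act on filament proteins, 9 were higher and 8 lower. Camk2a, a kinase of mature excitatory neurons, rose by 3.04 (SE 0.08, adjusted p = 1.14e-11), and Cdk5r2, an activator of the neurofilament kinase Cdk5, by 2.08 (SE 0.13, adjusted p = 1.00e-08). Aurkb and Cdk1, which phosphorylate vimentin in mitosis, had log2 fold changes of -1.34 (SE 0.20, adjusted p = 4.45e-05) and -0.92 (SE 0.16, adjusted p = 1.28e-04), and both also stand in the list of cycling-cell markers. The count of 8 lower kinases and phosphatases was 4 with limma on unfiltered log2(FPKM + 1) values, and it also dropped without Ezh2 cKO replicate 1.

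Of the 11 chaperones and turnover factors, 3 were higher. Cryab, the small heat shock protein that binds Gfap filaments, rose by 2.48 (SE 0.13, adjusted p = 2.14e-09) and the protease gene Capn1 by 2.36 (SE 0.17, adjusted p = 3.53e-08). Of the 9 transport motors, 6 were higher and 2 lower. The kinesin genes Kif5a, the motor of neurofilament transport, and Kif1a, a motor of synaptic vesicle precursors, rose by 1.12 (SE 0.08, adjusted p = 3.37e-08) and 0.69 (SE 0.08, adjusted p = 2.55e-06). Dync1h1 and Dctn1, subunits of dynein and dynactin, had log2 fold changes of -0.77 (SE 0.08, adjusted p = 6.38e-07) and -0.57 (SE 0.08, adjusted p = 1.41e-05). The 2 kinesins named thus rose and the 2 named parts of the retrograde motor fell, under a naming rule that takes 2 genes of each direction.

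Of 21 tested regulators of the Gfap promoter, 4 were higher and 12 lower, with a median log2 fold change of -0.46, while Gfap itself rose. Jak1, a kinase that activates Stat3, rose by 0.72 (SE 0.11, adjusted p = 3.80e-05), and Olig2, a factor of the oligodendrocyte lineage that also marks precursors, rose by 0.61 (SE 0.09, adjusted p = 5.12e-05). Nfix, a nuclear factor I gene, and Crebbp, which encodes the coactivator CBP, had log2 fold changes of -1.52 (SE 0.08, adjusted p = 1.59e-09) and -1.24 (SE 0.10, adjusted p = 6.86e-08). The list holds activators and repressors alike, and its counts say nothing about their activity.

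**Figure D5:**
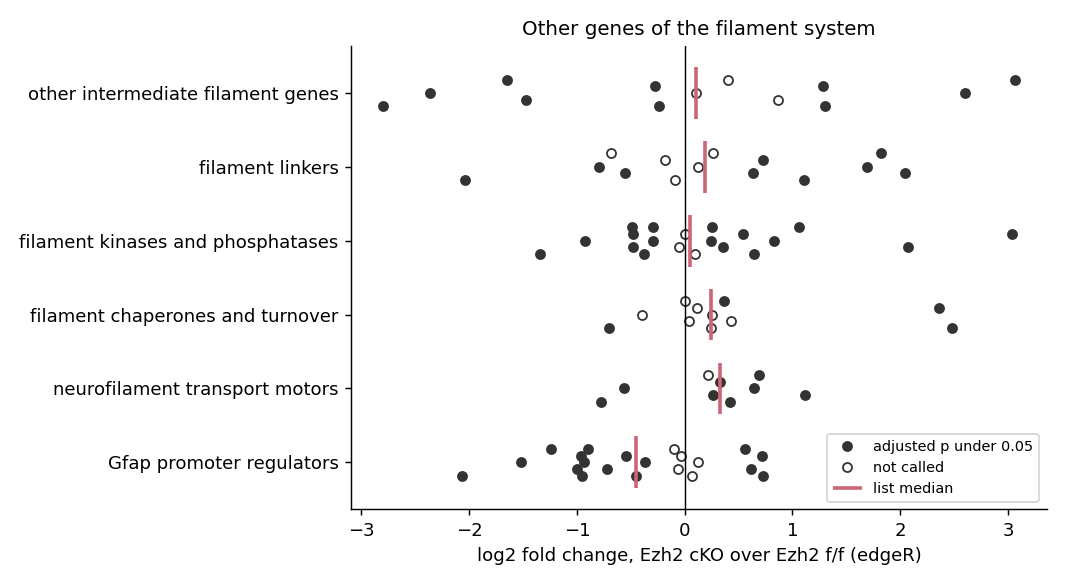
Log2 fold change of Ezh2 cKO over Ezh2 f/f for each tested gene of the 6 lists of the filament system, with 1 point per gene, filled where the adjusted p was under 0.05, and a red line at each list median. Called genes lay on both sides of 0 in every list, from -2.80 for Lmnb1 to 3.06 for Krt222.

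The genes whose profiles over the 4 libraries were most like those of Gfap, Vim and Nefm were found by the Euclidean distance between log2 CPM profiles centred on their mean, among 9704 genes with a mean of at least 10 CPM. Gfap was closest to Slc1a2, which encodes the astrocyte glutamate transporter GLT-1, at a distance of 0.263, followed by Ipcef1 at 0.269 and Slc2a6 at 0.281. Slc1a2 was counted 1112 and 1021 times in Ezh2 f/f, against 17915 and 16955 times in Ezh2 cKO. Vim was closest to Rcc2, Cactin and Jmjd8, at 0.0178, 0.0225 and 0.0279. Nefm was closest to Smim18, Fmnl1 and Cyb561d2, at 0.0129, 0.0404 and 0.0460. With 4 libraries in 2 groups these distances mostly rank genes by the size of their fold change.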

How the data were processed

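RNA of 4 libraries was sequenced on an Illumina platform. The authors deposited counts of reads per gene, without normalization, and FPKM, the counts scaled to gene length and library size. The submitters' processing notes name Bowtie2 2.2.3, TopHat2 2.0.12 and HTSeq 0.6.0 and the build mm9, with no role for each. The annotation release and the use of strand are not given in the sources used here. Coordinates are those of the deposited table, without conversion between builds: of 28799 genes matched by identifier to GENCODE M21 (GRCm38), 581 have the same coordinates there. The length behind each FPKM, recovered from the count, the FPKM and the library total, equalled the exon length in GENCODE M21 for all 9 members, within 0.01 bases. The deposited table of counts also holds the authors' own comparison (a mean signal, a fold change, its log2 value, p-values and a direction), which was not used. No sample column was left out (0).

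Genes were filtered with filterByExpr, which left 16793, normalized by TMM and tested with edgeR 4.0.16 (glmQLFit and glmQLFTest, with no term but the group, at a common biological coefficient of variation of 0.0953) in R 4.3.3, with Benjamini-Hochberg adjustment over all genes tested and a threshold of 0.05. Each fold change divides Ezh2 cKO by Ezh2 f/f, and SE is the log2 fold change over the square root of the F statistic. CPM values use TMM-adjusted library sizes, except for the limit of 3 counts, which uses total counts. Total counts were 16273308 to 17522152 per library, and replicates differed beyond sampling noise (chi-square per degree of freedom 8.92 for Ezh2 f/f, 5.68 for Ezh2 cKO). The libraries are titled W and C in the labels, and these were taken as Ezh2 f/f and Ezh2 cKO. The alternatives were DESeq2 1.42.0, its size factors, total counts, no filter, a mean count of at least 50, limma 3.58.1 on log2(FPKM + 1) or log2(FPKM + 0.1), the replicate number as a block and each library left out. Marker sums in FPKM and without their largest gene were added after seeing the data. Exact tests used Python 3.11.15 with scipy 1.17.1. Among the tests, edgeR, DESeq2, limma on log2(FPKM + 1) and edgeR with a library left out were tried on simulated data. Far fewer genes changed there than were called here, and the exact test and the other alternatives were not tried.

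Genes named are the 9 members, Ezh2, the 2 higher and 2 lower called genes of smallest p in each filament list, and the 3 genes nearest to Gfap, Vim and Nefm. Aldh1l1, Slc1a3, Ttr, Prdm12, Fabp7, Tubb3, Tubb2b, Slc1a2 as a marker and the overlapping genes Ttc23 and Nt5c2 were named beyond that rule, after their values were seen. So were the other single astrocyte and pan-neuronal markers, Syne2 and Syne3. Similar genes left out symbols of predicted genes. A gene of the list of chaperones and turnover factors is not reported here. The members and lists were chosen with earlier results of these data known.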

Additional observations from a re-analysis of the deposited data

How the results depend on the processing

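Of 117 pairs of a member and an alternative (13 alternatives), 115 kept the direction and the side of the threshold. Both exceptions were Ina, whose call was lost with limma on log2(FPKM + 1) and no filter beyond a nonzero value (log2 fold change -0.49, adjusted p = 0.122) and without Ezh2 cKO replicate 1 (-0.52). With each library left out in turn, Ina ranged from -0.81 to -0.34, and Nefl from 1.69 to 2.59. Leaving out a library leaves 1 in that group, which is then assumed to vary like the other group. Prph was 1.58 at its lowest, with limma on FPKM. Under that unfiltered limma setting, 21 other genes of the filament system were lower, in place of 32, and the cause was not tested. With counts not scaled to length, the glial share of the sum was 45.4% (Ezh2 f/f) and 55.4% (Ezh2 cKO), in place of 35.8% and 50.5%. The replicate number as a block gave 5795 higher and 5599 lower genes over all, in place of 5831 and 5650. It left the 9 members' calls as they were. With the block, however, edgeR's adjusted p was far smaller for every member, at 4.57e-224 for Gfap in place of 2.51e-11. With either Ezh2 f/f library left out it was also far smaller for the members other than Ina. Calls kept under these settings therefore add little to the count of 115. The labels share only replicate numbers, and the deviations of same-numbered libraries correlated at 0.130, which with 2 pairs does not show a pairing. TMM left the median log2 fold change of all genes at 0.02, and total counts alone moved it to 0.10. The marker sums were recomputed after seeing the data. The log2 ratio of the progenitor sum went from 0.65 to -0.33 without Fabp7, and that of the pan-neuronal sum from 0.26 to -0.14 in FPKM. That of Synm relative to the astrocyte sum went from -0.35 to 0.20 without Slc1a2, where its groups overlapped. With 2 libraries per group and counts of 37 and 38, Prph in Ezh2 f/f had the least depth of the members.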
